A study of Mus musculus with 7 samples.

Results

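The TNF superfamily was followed here through 32 genes, 12 ligands and 20 receptors, out of 19938 genes measured in macrophages sorted from the mouse colon. The members are the genes named Tnf, Lta or Ltb or carrying a symbol that begins with Tnfsf or Tnfrsf, and each was represented by 1 row of the array. A row that carried several symbols was left out for the family in 1 case. Superfamily genes with other names, such as Cd40 and Fas, were read as a separate list.

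TNF superfamily ligands are trimeric proteins that act at the cell surface or after release by proteases, and their receptors carry cysteine-rich domains outside the cell. Inside the cell, some receptors recruit death-domain adaptors and others TRAF proteins, and many of them feed into the NF-kB and MAP kinase pathways. In the intestine TNF itself is a target of treatment in inflammatory bowel disease, and macrophages are among its main sources.

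The series holds 7 Affymetrix arrays of lamina propria cells, sorted by flow cytometry out of the colon of 6 weeks old C57BL/6 animals. All values are on the log2 scale. Il10ra_mKO (CX3CR1cre:IL10Raflox/flox, 2 arrays) lacks the IL-10 receptor chain wherever Cre driven by Cx3cr1 is active, and its counterpart is WT (Cx3cr1gfp/+, 3 arrays), both sorted under the label resident. Il10_KO (IL10-/- CX3CR1gfp/+, 1 array) and WT (Cx3cr1gfp/+, 1 array) were sorted under the label CX3CR1hi. The WT and Il10_KO mice carry GFP in place of 1 Cx3cr1 allele and the Il10ra_mKO mice carry Cre at Cx3cr1, so Cre and the deletion cannot be told apart. The labels give 1 RNA extraction kit for samples 1 and 2 and another for the rest. If those numbers follow the order of the series, which is not stated, kit and sort label coincide and cannot be told apart. The labels do not say that arrays of a group came from separate animals, so a p-value covers only the array-to-array spread, which may be technical. The targeted gene, Il10ra, was at 8.05 and 7.04 in Il10ra_mKO and at 10.56, 10.76 and 11.12 in resident WT. Il10 was at 10.75 in the array labelled Il10_KO and 11.04 in its WT array, so the Il10 level does not show the loss that this label names. Whether the probe set lies in the deleted part of the gene was not checked here, and the genotype of that array is taken from its label alone.

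The sorted cells carried the labelled identity together with RNA of other cells. The mean over 14 macrophage markers was 11.38 and 11.55 in Il10ra_mKO and 11.48 to 11.60 in resident WT. Single macrophage markers did differ. In 3 of them both mutant arrays lay above the WT range and in 4 below it, against 8.92% and 8.5% of all genes. Differences ran from -1.70 for Cd163 to 0.95 for Mertk. Cd163 was at 6.32 and 6.04 in Il10ra_mKO and 6.64 to 8.90 in resident WT. Epithelial markers were also bright, with a mean of 10.36 and 8.56 over 15 genes in Il10ra_mKO and 10.22 to 10.55 in resident WT, so Il10ra_mKO array 2 stood apart. Markers of T cells and innate lymphoid cells averaged 5.74 and 5.74 in Il10ra_mKO and 5.59 to 5.71 in resident WT over 16 genes, 15 of them higher. Both mutant arrays lay above the WT range in 4 of these genes and below it in 1, as in 8.92% and 8.5% of all genes. Single markers of this list differed between the mutant arrays, in both directions. Cd3e was at 6.10 and 5.69 in Il10ra_mKO and 5.32 to 5.59 in resident WT. Il7r was at 8.21 and 9.83 in Il10ra_mKO and 7.98 to 9.93 in resident WT. Neutrophil markers averaged 6.07 and 5.72 in Il10ra_mKO and 5.51 to 5.55 in resident WT, with 11 of 12 higher and 7 of them above the WT range in both mutant arrays. Monocyte markers averaged 8.26 and 7.86 in Il10ra_mKO and 7.49 to 7.73 in resident WT over 8 genes, 5 of them higher. In 2 of these 8 genes both mutant arrays lay above the WT range and in 2 below it. Their differences ran from -1.46 for Fn1 to 3.12 for F10. F10 was at 9.18 and 8.84 in Il10ra_mKO and 5.65 to 6.17 in resident WT, so the mean leans on that gene. These are bulk samples, in which fewer cells of a type and less RNA per cell cannot be told apart. Which cells carried each transcript was not tested.

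RefSeq promoter windows, running from 250 bases before to 50 after the start, were found for 26 of the 32 members. The windows below belong to Tnfrsf14 and Tnfsf15, which had the largest differences between resident groups, and to Tnfrsf1b, Tnfsf13b and Tnfrsf17, the other members that hold the motif found in Tnfrsf14. Of these 4, Tnfrsf17 was lower in both Il10ra_mKO arrays than in resident WT and the others were higher. Capitals mark a match to the interferon-stimulated response element (ISRE), searched on both strands as GAAA, any 2 bases and GAAA. Sequences read 5′ to 3′ on the gene's strand, in build GRCm38.p6.
Tnfrsf14, chr4:154928028-154928327, minus strand: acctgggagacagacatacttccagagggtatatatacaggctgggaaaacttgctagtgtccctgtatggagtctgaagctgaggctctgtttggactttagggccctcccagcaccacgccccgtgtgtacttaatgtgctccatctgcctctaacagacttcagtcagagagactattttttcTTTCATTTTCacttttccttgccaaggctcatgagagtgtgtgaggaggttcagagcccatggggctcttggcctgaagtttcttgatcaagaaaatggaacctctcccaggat
Tnfrsf1b, chr4:145246821-145247120, minus strand: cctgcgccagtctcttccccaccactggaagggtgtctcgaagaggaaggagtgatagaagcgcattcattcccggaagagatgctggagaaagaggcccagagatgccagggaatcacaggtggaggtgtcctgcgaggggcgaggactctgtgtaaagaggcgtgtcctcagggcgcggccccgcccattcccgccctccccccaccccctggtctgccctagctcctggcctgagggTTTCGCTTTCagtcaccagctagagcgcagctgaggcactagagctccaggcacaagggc
Tnfsf13b, chr8:10006383-10006682, plus strand: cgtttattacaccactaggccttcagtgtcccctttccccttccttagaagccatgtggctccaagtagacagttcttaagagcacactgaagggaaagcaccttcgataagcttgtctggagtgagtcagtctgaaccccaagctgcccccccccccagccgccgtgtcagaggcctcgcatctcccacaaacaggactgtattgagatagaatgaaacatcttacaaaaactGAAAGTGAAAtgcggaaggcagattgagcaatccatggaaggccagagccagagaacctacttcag
Tnfrsf17, chr16:11313559-11313858, plus strand: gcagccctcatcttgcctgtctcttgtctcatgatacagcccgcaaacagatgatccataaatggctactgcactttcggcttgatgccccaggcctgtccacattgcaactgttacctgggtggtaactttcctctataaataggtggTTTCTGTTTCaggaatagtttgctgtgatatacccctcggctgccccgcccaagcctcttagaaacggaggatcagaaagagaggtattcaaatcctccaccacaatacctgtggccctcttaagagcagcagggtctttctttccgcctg
Tnfsf15, chr4:63745010-63745309, minus strand, with no ISRE match: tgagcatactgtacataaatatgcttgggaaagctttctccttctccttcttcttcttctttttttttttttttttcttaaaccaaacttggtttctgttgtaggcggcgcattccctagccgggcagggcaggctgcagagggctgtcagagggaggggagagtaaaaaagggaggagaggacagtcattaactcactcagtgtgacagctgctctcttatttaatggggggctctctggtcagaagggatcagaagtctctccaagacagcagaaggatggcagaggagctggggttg

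Of 30 member windows 4 held the ISRE, and so did 3.44% of all 32851 windows. Counted from the start, the matches began at position -64 in Tnfrsf14, -10 in Tnfrsf1b, -16 in Tnfsf13b and -101 in Tnfrsf17. Tnfsf13b had another window, from a different start, that held no ISRE match and is not printed. The gamma-activated sequence TTCNNNGAA lay in 8 member windows and in 8.3% of all windows, and the AP-1 motif TGANTCA in 5 and in 7.81%. The kappaB motif lay in 3 member windows (Ltb, Tnfrsf8 and Tnfrsf9) and in 4.51% of all windows. No searched motif overlapped an ISRE match in the windows printed, and a match is a run of letters and not a measured binding site.

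In resident WT arrays 10 of the 32 members lay above log2 7 in all 3 arrays, 4 ligands and 6 receptors. Of all genes, 35.6% met the same criterion. The ligands were Tnf, Tnfsf9 (4-1BBL, a costimulator of T cells), Tnfsf13b (BAFF, a survival factor of B cells) and Tnfsf15 (TL1A, the ligand of death receptor 3). The 6 receptors included Tnfrsf1a and Tnfrsf1b, both receptors of TNF, Tnfrsf11a (RANK, the receptor of Tnfsf11) and Tnfrsf13b (TACI, a receptor of BAFF). The others were Tnfrsf14 (HVEM, a receptor of LIGHT) and Tnfrsf21 (death receptor 6). The level of log2 7 is a marker on the scale and not a detection limit, and the brightness of different probe sets cannot be ranked against each other.

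The closest member inside that level was Tnfsf15, whose lowest resident WT array stood at 7.02. Tnfsf10 (TRAIL, which triggers apoptosis through Tnfrsf10b) was the closest outside, with a lowest resident WT array of 6.71, followed by Tnfrsf13c (6.70) and Tnfrsf12a (6.57). The remaining members stood lower. In all, 18 of the 32 lay below log2 7 in every array of the series.

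**Figure D1:**
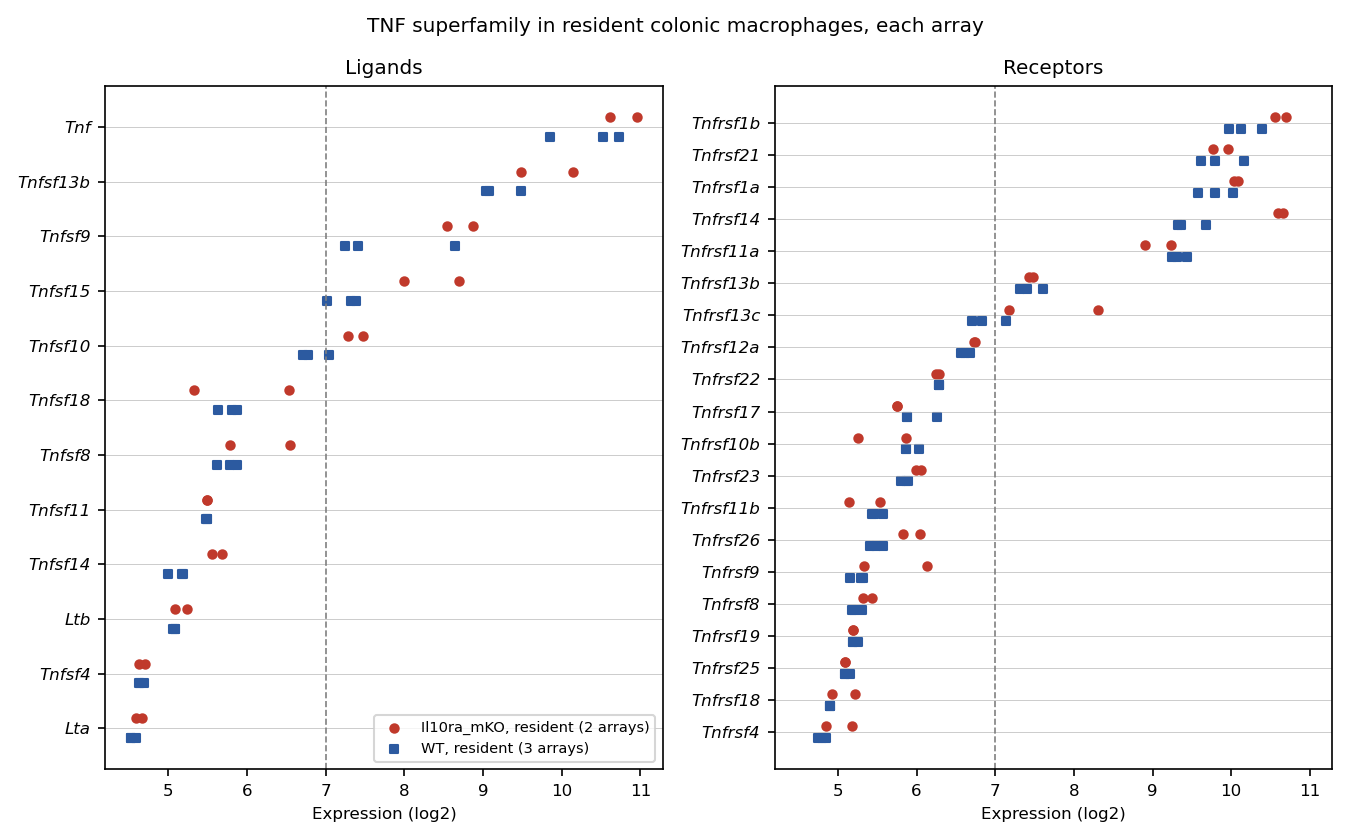
Expression (log2) of the 12 ligands and 20 receptors in each resident array, with Il10ra_mKO as circles (2 arrays) and WT as squares (3 arrays). The dashed line marks log2 7, which 4 ligands and 6 receptors exceeded in all 3 WT arrays, and both Tnfrsf14 circles lie to the right of every Tnfrsf14 square.

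The comparison of Il10ra_mKO with resident WT asks how macrophages change when they cannot sense IL-10. By limma 0 of the 32 members passed at an adjusted p under 0.05 in either direction, and over all genes 0% rose and 0.00502% fell. The lowest adjusted p of a member was 0.243, for Tnfrsf14. At an unadjusted p under 0.05, 7 members were higher and 0 lower, against 4.06% and 3.86% of all genes. They were Tnfrsf14, Tnfsf14, Tnfrsf26, Tnfsf15, Tnfrsf23, Tnfsf10 and Tnfrsf1b. Both Il10ra_mKO arrays lay above the WT range in 15 members (8.92% of all genes) and below it in 2 (8.5% of all genes). With a difference of at least 2-fold besides, 2 members were higher, Tnfrsf14 and Tnfsf15, and 0 lower (0.913% and 1.35% of all genes).

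Of these 15 members 10 were not above log2 7 in all 3 resident WT arrays, and many gaps were small. A gap of at least 0.1 between the nearest arrays of both groups, a criterion added after the data were seen, left 7 members higher and 1 lower (4.45% and 4.41% of all genes). Among the 10 members above log2 7, 5 had both mutant arrays above the WT range and 1 below it. Of all genes above that level 15.5% lay above and 11.3% below. The median difference was 0.42 over the ligands and 0.13 over the receptors, beside 0.00 over all genes, and leaving out Il10ra_mKO array 2 gave a ligand median of 0.15, leaving out WT array 2 one of 0.25. All 12 ligands had a positive difference, from 0.01 to 1.10, and 13 of 20 receptors did, within a range of -0.36 to 1.16, beside 48.5% of all genes. Among the ligands Tnfsf11, Tnfsf4, Lta and Ltb were within 0.08 of 0, and Tnfsf18 was at -0.45 without Il10ra_mKO array 2.

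Tnfrsf14 (HVEM) engages the ligand LIGHT and also the inhibitory lymphocyte receptor BTLA. It stood at 10.66 and 10.59 in Il10ra_mKO, against 9.36, 9.33 and 9.68 in WT, so the groups were well apart. The difference was 1.16 ± 0.13 (SE, log2), 2.24-fold, with adjusted p = 0.243. It passed by limma under 2 other scalings of the arrays, with adjusted p = 0.0343 after quantile normalization and 0.0207 after centring on the median. In the runs of neighbouring sample numbers that each held 1 mutant array, the difference was 1.31 and 0.91. Leaving out any 1 resident array gave 1.10 to 1.28. Under the CX3CR1hi label Tnfrsf14 was at 10.60 in the array labelled Il10_KO and 9.73 in WT, a difference of 0.88.

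LIGHT itself (Tnfsf14) was dim, at 5.68 and 5.56 in Il10ra_mKO and at 5.12 ± 0.11 (SD, n = 3) in WT. The groups did not overlap, with a difference of 0.50 ± 0.08 (SE) and adjusted p = 0.335. Among CX3CR1hi cells it stood at 4.93 in the array labelled Il10_KO and 4.77 in WT.

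Tnfsf15 (TL1A) costimulates T cells and innate lymphoid cells, and variants near its human gene are associated with inflammatory bowel disease. It stood at 7.99 and 8.69 in Il10ra_mKO, against 7.32, 7.02 and 7.39 in WT, with no overlap. The difference was 1.10 ± 0.27 (SE, log2), 2.14-fold, with adjusted p = 0.459. It was 0.82 and 1.30 within the runs of sample numbers, and 1.45 without Il10ra_mKO array 1 and 0.74 without array 2. Tnfsf15 in the CX3CR1hi arrays was at 7.45 in the array labelled Il10_KO and 6.34 in WT, 1.11 apart. Its receptor Tnfrsf25 (death receptor 3) was dim throughout, at 5.09 and 5.09 in Il10ra_mKO and 5.09 to 5.15 in resident WT.

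Tnfsf13b (BAFF) keeps B cells alive and is made mainly by myeloid cells. Its values were 9.48 and 10.15 in Il10ra_mKO, against 9.08, 9.04 and 9.48 in WT. Il10ra_mKO array 1 and WT array 3 were equal at this rounding, and the difference was 0.62 ± 0.28 (SE, adjusted p = 0.678). The difference was 0.28 without array 2 of the mutant and 0.95 without array 1. For CX3CR1hi cells BAFF stood at 9.94 in the array labelled Il10_KO and 9.33 in WT, a difference of 0.61.

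Receptors of BAFF are best known from B cells and plasma cells. Tnfrsf13c (BAFF receptor) was at 7.17 and 8.31 in Il10ra_mKO, against 7.14, 6.70 and 6.83 in WT. The difference was 0.85 ± 0.40 (SE, adjusted p = 0.678), with 1.42 without array 1 of the mutant and 0.29 without array 2. Array 2 alone was far above the WT range. Several B cell markers were highest in the same array among the resident ones. Ms4a1 (CD20) was at 6.72 and 8.16 in Il10ra_mKO and at 6.19, 5.79 and 5.70 in WT, and Pax5, the B cell regulator, at 4.98 and 6.16 in Il10ra_mKO and at 4.99, 4.62 and 4.90 in WT. The mean over the 9 measured B and plasma cell markers outside the family was 6.93 and 7.65 in Il10ra_mKO and 6.62 to 6.82 in WT. Of the 11 measured markers, Tnfrsf13c and Tnfrsf17 included, 8 were higher and 3 lower in Il10ra_mKO. Jchain and Sdc1 were among the lower ones by group mean. Jchain was at 11.36 and 11.46 in Il10ra_mKO and 11.55 to 11.60 in WT. Sdc1 was at 8.49 and 7.53 in Il10ra_mKO and 8.27 to 8.29 in WT, so it was lower in array 2 alone. The mean of the epithelial markers was also lowest in that array, at 8.56. The part of epithelial cells in the Sdc1 values was not tested. The part of B and plasma cells in the Tnfrsf13c value was not tested. Tnfrsf13b (TACI) overlapped, at 7.43 and 7.48 in Il10ra_mKO and 7.31, 7.41 and 7.61 in WT, with a difference of 0.01. Tnfrsf17 (BCMA, a plasma cell receptor) lay lower in Il10ra_mKO, at 5.75 and 5.75, than in WT, at 6.26, 5.88 and 5.88, with a difference of -0.26, or -0.13 without WT array 1.

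**Figure D2:**
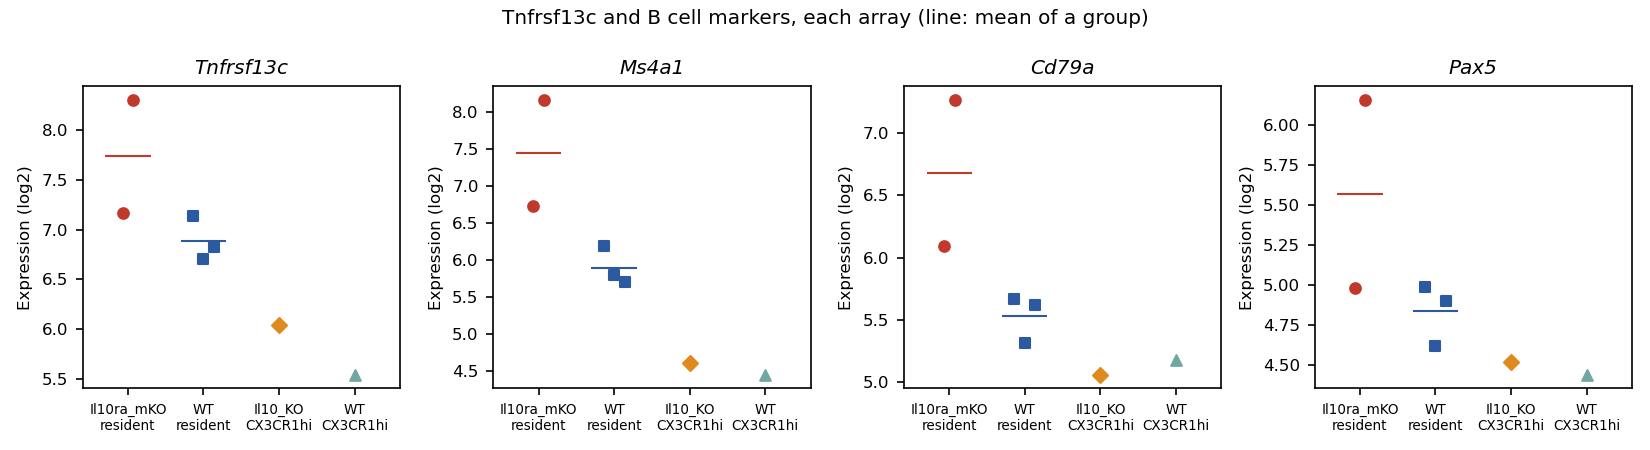
Expression (log2) of Tnfrsf13c and of the B cell markers Ms4a1, Cd79a and Pax5 in each of the 7 arrays, grouped by genotype and sort label, with a line at the mean of each group of more than 1 array. In all 4 genes the highest point is Il10ra_mKO array 2, at 8.31 for Tnfrsf13c and 8.16 for Ms4a1.

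Tnf stood at 10.62 and 10.96 in Il10ra_mKO, against 10.73, 9.85 and 10.52 in WT. The groups overlapped, with a difference of 0.43 ± 0.32 (SE, adjusted p = 0.689) that became 0.17 without WT array 2, the lowest of the 3, and 0.26 without Il10ra_mKO array 2. The CX3CR1hi arrays had Tnf at 10.41 in the array labelled Il10_KO and 10.30 in WT. The lymphotoxin genes Lta and Ltb neighbour Tnf on the chromosome and were dim in every array. Lta was at 4.59 and 4.66 in Il10ra_mKO and 4.59, 4.52 and 4.52 in WT, and Ltb at 5.09 and 5.23 in Il10ra_mKO and 5.09, 5.06 and 5.09 in WT. Both overlapped between the resident groups. Among CX3CR1hi cells Lta was at 4.17 in the array labelled Il10_KO and 4.03 in WT, and Ltb at 4.42 in the array labelled Il10_KO and 4.41 in WT.

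The receptors of TNF were above the WT range in both mutant arrays by small margins. Tnfrsf1b, the receptor that binds TRAF2 and lacks a death domain, was at 10.56 and 10.70 in Il10ra_mKO, against 10.13, 9.97 and 10.39 in WT. The difference was 0.47 ± 0.15 (SE, adjusted p = 0.579). Tnfrsf1a, the receptor with a death domain, was at 10.04 and 10.09 in Il10ra_mKO, against 9.79, 9.58 and 10.02 in WT. The difference was 0.26 ± 0.15 (SE, adjusted p = 0.678), and 0.15 without WT array 2. Array 1 lay next to the highest WT array. Tnfrsf1b in the CX3CR1hi arrays was at 10.87 in the array labelled Il10_KO and 10.50 in WT, and Tnfrsf1a at 10.84 in the array labelled Il10_KO and 10.45 in WT.

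Tnfsf9 (4-1BBL) had the widest spread among WT arrays of the members above log2 7. It stood at 8.87 and 8.54 in Il10ra_mKO, against 8.64, 7.41 and 7.25 in WT, so WT array 1 lay among the mutant arrays. The difference was 0.93 ± 0.52 (SE, adjusted p = 0.678), and 0.67 to 1.37 when single arrays were left out. The CX3CR1hi arrays had the opposite order, with 7.89 in the array labelled Il10_KO and 8.14 in WT, a difference of -0.26. Whether the Tnfsf9 difference from WT is itself different between Il10ra_mKO and Il10_KO was not tested. Its receptor Tnfrsf9 (4-1BB) was at 6.13 and 5.33 in Il10ra_mKO and 5.16, 5.32 and 5.30 in WT, so array 1 alone was clearly higher, and the difference was 0.07 without it.

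Tnfsf10 (TRAIL) was at 7.47 and 7.28 in Il10ra_mKO, against 6.71, 6.78 and 7.04 in WT, with no overlap. The difference was 0.53 ± 0.14 (SE, adjusted p = 0.486). For CX3CR1hi cells it was 0.80, with 7.98 in the array labelled Il10_KO and 7.18 in WT. Its death receptor Tnfrsf10b pointed the other way, at 5.87 and 5.25 in Il10ra_mKO and 6.03, 5.87 and 5.87 in WT, which overlapped. Its difference was -0.68 without Il10ra_mKO array 1 and -0.05 without array 2. In the CX3CR1hi arrays Tnfrsf10b was at 6.11 in the array labelled Il10_KO and 7.17 in WT, 2.09-fold lower. The mean of the epithelial markers was 10.36 and 8.56 in Il10ra_mKO and 10.22 to 10.55 in resident WT. In the CX3CR1hi arrays that mean was 10.33 in the array labelled Il10_KO and 10.88 in WT. The part of epithelial cells in the Tnfrsf10b values was not tested. Of the decoy receptors of TRAIL in the mouse, Tnfrsf23 was at 6.06 and 5.99 in Il10ra_mKO and 5.80 to 5.89 in WT, and Tnfrsf22 was at 6.28 and 6.25 in Il10ra_mKO and 6.28 in each WT array. Tnfrsf26, which neighbours both, was at 6.05 and 5.83 in Il10ra_mKO and 5.57, 5.41 and 5.48 in WT, 0.45 ± 0.09 apart (SE, adjusted p = 0.396).

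**Figure D3:**
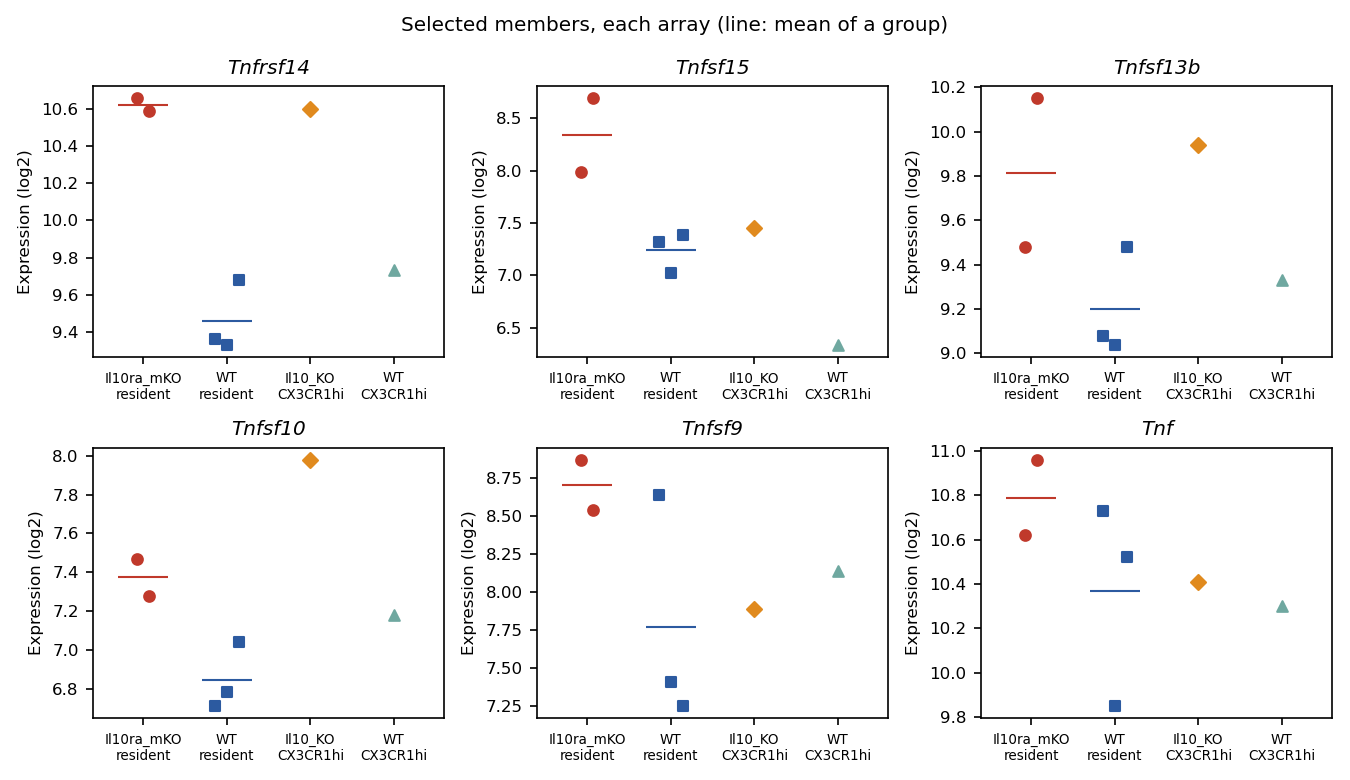
Expression (log2) of Tnfrsf14, Tnfsf15, Tnfsf13b, Tnfsf10, Tnfsf9 and Tnf in each of the 7 arrays, grouped by genotype and sort label, with a line at the mean of each group of more than 1 array and a separate axis range for each gene. In the resident arrays both Tnfrsf14 circles lie above every square, while Tnf and Tnfsf9 overlap.

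The RANK system regulates osteoclasts and lymphoid tissue. Tnfrsf11a (RANK) was the only member above log2 7 whose mutant arrays both lay below the WT range, at 8.91 and 9.24 in Il10ra_mKO and at 9.31, 9.44 and 9.25 in WT. Array 2 lay next to the lowest WT array, and the difference was -0.26 ± 0.13 (SE, adjusted p = 0.678). It was -0.09 without Il10ra_mKO array 1 and -0.42 without array 2. Tnfrsf11a in the CX3CR1hi arrays was at 9.87 in the array labelled Il10_KO and 10.11 in WT. Its ligand Tnfsf11 (RANKL) was at 5.49 and 5.49 in Il10ra_mKO and 5.48 to 5.49 in WT. Tnfrsf11b, the soluble decoy osteoprotegerin, was at 5.54 and 5.14 in Il10ra_mKO and 5.44 to 5.57 in WT.

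Tnfrsf4 (OX40), Tnfrsf18 (GITR) and Tnfrsf8 (CD30) had both mutant arrays above the WT range, with differences of 0.21, 0.17 and 0.15. All 3 were dim, and without Il10ra_mKO array 1 the differences were 0.05, 0.03 and 0.08. In Il10ra_mKO arrays 1 and 2 the mean over 16 markers of T cells and innate lymphoid cells was 5.74 and 5.74. Single genes of that list went both ways between these arrays. Cd3e was at 6.10 and 5.69, Cd3g at 5.23 and 4.90 and Thy1 at 5.84 and 5.45. Cd4 was at 10.36 and 10.87 and Il7r at 8.21 and 9.83. The part of T cells in the values of these 3 receptors was not tested. The ligands of these receptors, Tnfsf4, Tnfsf18 and Tnfsf8, overlapped. Tnfsf18 was at 5.33 and 6.53 in Il10ra_mKO and 5.63 to 5.87 in WT. Tnfsf8 was at 5.78 and 6.54 in Il10ra_mKO and 5.62 to 5.87 in WT. In both genes Il10ra_mKO array 2 was alone above WT. That array also had the highest mean of B and plasma cell markers, at 7.65, and the lowest mean of epithelial markers, at 8.56. The part of other cells in the Tnfsf18 and Tnfsf8 values was not tested. Without that array the difference was -0.45 for Tnfsf18 and 0.03 for Tnfsf8. Tnfrsf12a, the receptor of TWEAK, was at 6.73 and 6.74 in Il10ra_mKO and 6.62, 6.68 and 6.57 in WT. Among CX3CR1hi cells it was at 7.34 in the array labelled Il10_KO and 6.82 in WT. Tnfrsf21 was at 9.77 and 9.96 in Il10ra_mKO and 9.62, 9.80 and 10.16 in WT, and Tnfrsf19 at 5.19 and 5.19 in Il10ra_mKO and 5.19 to 5.26 in WT, and both overlapped. The Tnfrsf21 difference was 0.00.

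The comparison of Il10_KO with WT in the CX3CR1hi arrays sets an array labelled as lacking IL-10, whose Il10 level was not clearly below that of WT, against 1 WT array. It rests on 1 array for each genotype, so it has no replicate check and no test. At a difference of at least 2-fold, 1 member was higher, Tnfsf15, and 1 lower, Tnfrsf10b, against 0.692% and 1.22% of all genes. Of the 32 members 22 were higher at any size, beside 56.3% of all genes. The median difference was 0.15 over the ligands and 0.21 over the receptors, and 0.03 over all genes.

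Both comparisons use separate arrays. In 5 members, Tnfrsf14, Tnfsf15, Tnfsf13b, Tnfsf10 and Tnfrsf13c, the Il10ra_mKO arrays lay above the resident WT range with a difference of at least 0.5, and the Il10_KO array lay at least 0.5 above its WT array. Of all genes 1.69% met this criterion, which was set after these values had been seen. None of the members met the mirror criterion in the lower direction. Under the CX3CR1hi label Ms4a1 was at 4.60 in the array labelled Il10_KO and 4.45 in WT, and Tnfrsf13c was at 6.04 in the array labelled Il10_KO and 5.54 in WT. Single dendritic cell markers differed by large amounts in both directions. Clec9a was at 8.58 and 9.32 in Il10ra_mKO and 5.65 to 6.34 in resident WT, and at 8.44 in the array labelled Il10_KO and 5.80 in its WT array. Ccr7 was at 9.57 and 9.92 in Il10ra_mKO and 6.64 to 8.07 in resident WT, and at 8.44 in the array labelled Il10_KO and 6.38 in its WT array. Cd209a was lower, at 6.47 and 7.16 in Il10ra_mKO and 8.63 to 9.65 in resident WT, and at 5.69 in the array labelled Il10_KO and 8.12 in its WT array. Siglech was at 5.43 and 5.45 in Il10ra_mKO and 6.80 to 7.22 in resident WT, and at 6.54 in the array labelled Il10_KO and 7.28 in its WT array. Over all 10 dendritic cell markers 6 were higher and 3 lower in Il10ra_mKO, with means of 6.71 and 6.98 in Il10ra_mKO and 6.42 to 6.67 in resident WT. The part of dendritic cells in the Tnfsf15 and Tnfrsf14 values was not tested.

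**Figure D4:**
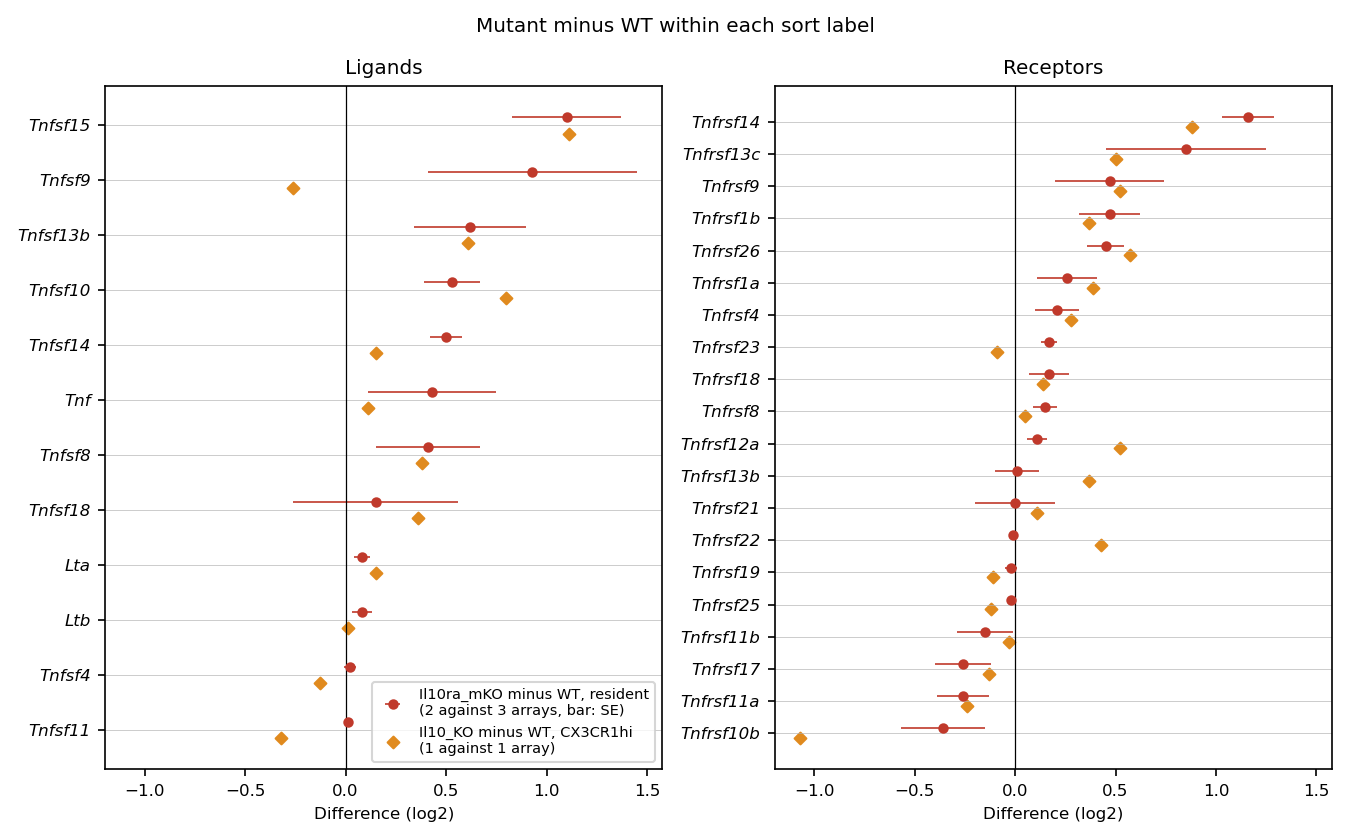
Difference in expression (log2) for each ligand and receptor, as Il10ra_mKO minus WT in the resident arrays (circles, 2 against 3 arrays, bars show the SE) and Il10_KO minus WT in the CX3CR1hi arrays (diamonds, 1 against 1 array). Tnfsf15 and Tnfrsf14 lie furthest to the right among ligands and receptors in the resident arrays, and Tnfsf9 has opposite signs in the 2 comparisons.

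Superfamily genes with other names also included bright and dim members. Of the 12 measured, 0 passed by limma and 2 had both mutant arrays above the WT range, as had 8.92% of all genes. Relt, a receptor of blood cells, was at 7.21 and 7.70 in Il10ra_mKO, against 6.32 to 6.75 in WT, so it was 0.93 ± 0.22 higher (SE, adjusted p = 0.441). The Il10_KO array, at 7.51, was 2.01-fold above its WT array. Cd40, through which T cells activate antigen-presenting cells, was at 10.11 and 10.04 in Il10ra_mKO, against 9.59, 8.95 and 9.73 in WT. Its difference was 0.65 ± 0.28 (SE, adjusted p = 0.678) there, 0.42 without WT array 2, and 0.72 in the CX3CR1hi arrays, with 9.99 in the array labelled Il10_KO and 9.27 in WT. Fas, a death receptor, overlapped at 6.68 and 6.37 in Il10ra_mKO and 6.48, 6.24 and 6.01 in WT, with differences of 0.13 to 0.44 when single arrays were left out. The ligands Fasl, Cd40lg, Cd70 and Eda stayed below log2 7 in every array.

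Among 20 measured adaptors and kinases of the receptors, 0 passed by limma, 19 were higher in Il10ra_mKO at any size, and 9 had both mutant arrays above the WT range. Of all genes 48.5% were higher and 8.92% lay above the range, or 15.5% of those above log2 7. The median difference was 0.19. Traf1, an adaptor that NF-kB induces, was at 8.21 and 8.07 in Il10ra_mKO, against 7.67, 6.98 and 7.16 in WT (0.87 ± 0.25, SE, adjusted p = 0.519). Among CX3CR1hi cells it was at 7.91 in the array labelled Il10_KO and 7.29 in WT. Traf5 and Traf6 had differences of 0.67 and 0.54 in the resident arrays and of 0.83 and 0.30 in the CX3CR1hi arrays, and single arrays left out gave 0.39 to 0.95 for Traf5. The 4 measured NF-kB subunits had differences of 0.04 to 0.32, and 0 passed. The 12 feedback inhibitors had a median of 0.28 and 0 passed, with Tnip1 at 0.50, the deubiquitinase Cyld at 0.47 and Nfkbia at 0.44. Cyld was at 0.27 without Il10ra_mKO array 2 and Nfkbia at 0.29 without WT array 2. Tnfaip3 (A20), another of them, was at 11.36 and 11.61 in Il10ra_mKO and 11.54, 10.99 and 11.71 in WT.

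Release of TNF from the cell surface depends on the protease Adam17, which Rhbdf2 (iRhom2) brings to the surface and Timp3 inhibits. Of 6 genes measured in this group 0 passed. Both mutant arrays lay above the WT range in 2 of them, Rhbdf2 and Furin, and below it in another 2, Timp3 and Rhbdf1. The same held for 8.92% and 8.5% of all genes. Rhbdf2 was at 8.79 and 8.74 in Il10ra_mKO, against 8.26, 7.82 and 8.06 in WT (0.72 ± 0.15, SE, adjusted p = 0.416), and Adam17 at 10.62 and 11.24 in Il10ra_mKO, against 10.53, 10.20 and 10.71 in WT. Adam17 overlapped between the groups, and its difference was 0.76 without Il10ra_mKO array 1 and 0.14 without array 2. Timp3 was lower, at 7.05 and 6.82 in Il10ra_mKO, against 7.82, 7.91 and 7.55 in WT (-0.82 ± 0.15, SE, adjusted p = 0.365), and so was Rhbdf1, at 6.41 and 6.36 in Il10ra_mKO, against 7.29, 7.04 and 6.80 in WT. Fibroblast and muscle markers were also lower, with means of 6.54 and 6.45 in Il10ra_mKO and 6.94 to 7.39 in resident WT over 11 genes, 10 of them lower. The part of those cells in the Timp3 and Rhbdf1 values was not tested. Among 8 regulators of Tnf mRNA 0 passed, and the differences ran from -0.05 to 0.56, the highest for the ribonuclease gene Zc3h12a, which had 0.32 to 0.87 when single arrays were left out.

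**Figure D5:**
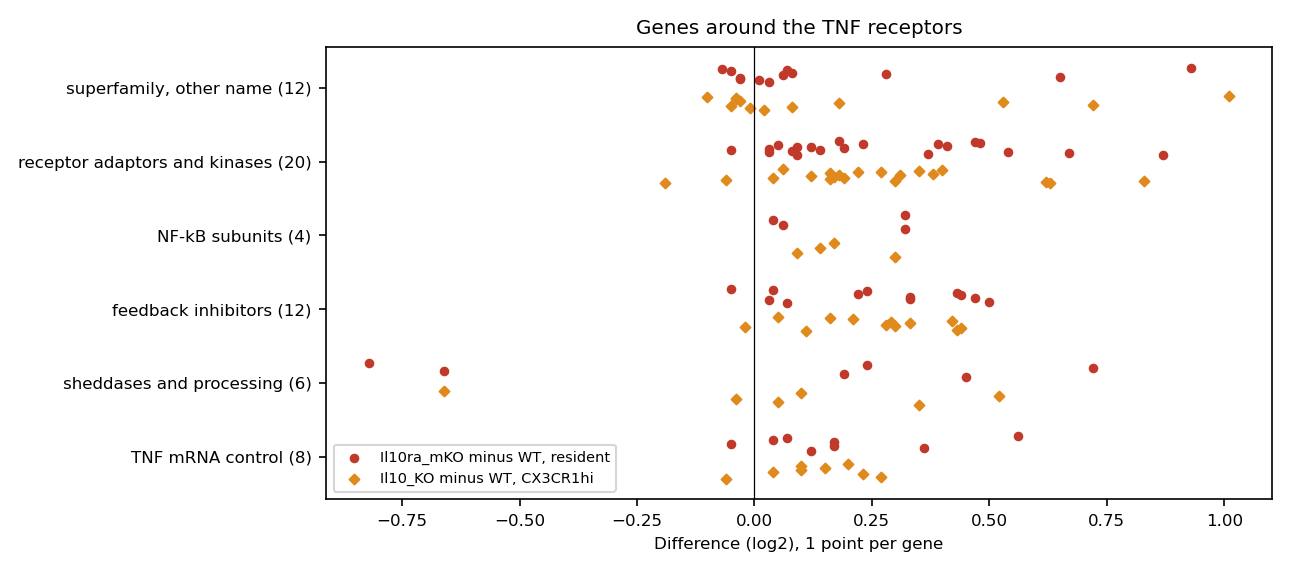
Difference in expression (log2) of genes around the TNF receptors in 6 lists, 1 point per gene, as Il10ra_mKO minus WT in the resident arrays (circles) and Il10_KO minus WT in the CX3CR1hi arrays (diamonds). Most points lie right of 0, with Timp3 (-0.82) and Rhbdf1 (-0.66) as the circles furthest to the left.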

How the data were processed

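RNA from sorted colonic macrophages was measured on 7 Affymetrix arrays. The deposited values are log2 expression values, and RMA and Partek are named per the submitters' processing notes. The sources used here do not state versions, the build or whether all arrays were normalized jointly. RMA shrinks differences of dim genes, and the number of arrays limits precision. The values run from 3.55 to 14.78, with an upper quartile of 8.26 to 8.30 in the CX3CR1hi and 7.93 to 8.01 in the resident arrays. No pair of arrays held identical values.

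Of 35399 rows 21789 had 1 gene symbol, 1621 several and 11989 none. The brightest row per gene was kept, which left 19938 genes. All 32 members had 1 row each.

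Groups were fitted with limma 3.58.1 in R 4.3.3 (1 mean per group, all 7 arrays, eBayes with a variance trend, 3 residual degrees of freedom, prior 0.831). P-values are two-sided, adjusted over all genes by Benjamini-Hochberg and called under 0.05. A run on simulated data checked the estimated sizes of change and not the p-values. The CX3CR1hi pair was not tested. Members, lists and rules were chosen with earlier results of these data known. Array values are given for Tnf, Lta and Ltb, and for members above log2 7 in a group with a difference of at least 0.5 or groups apart. Other members are given in part. Replicate numbers follow accession order and pair nothing. Promoter windows come from RefSeq (GRCm38.p6).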

Additional observations from a re-analysis of the deposited data

How the results depend on the processing

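The count of members past the adjusted p was 0 with all arrays. It was 1 after quantile normalization within each sort label (Tnfrsf14, adjusted p = 0.0343) and 4 after centring each array on its median (Tnfrsf14, Tnfsf14, Tnfrsf26 and Tnfsf15, adjusted p of 0.0207 to 0.0431). Leaving out each resident array gave 0 to 1 member, the 1 being the dim Tnfrsf18 without Il10ra_mKO array 2. The count over all genes moved as well. It was 1 as deposited, 110 and 421 under these scalings, 12 with the brightness filter, 4 without the variance trend, 0 with the run of neighbouring sample numbers as a block, and 0 to 267 when single arrays were left out. The cause was not tested. The members apart from WT and at least 2-fold higher numbered 2, 4 at 1.5-fold, 15 with no minimum size, and 1 to 3 when single arrays were left out (1 without WT array 2, with Tnfsf15 at 0.98). Those lower numbered 0, and 2 with no minimum size. A gap of at least 0.1 left 7 higher and 1 lower. In the CX3CR1hi arrays 1 member was at least 2-fold higher and 4 at least 1.5-fold. Leaving out single arrays gave ligand medians of 0.15 (without Il10ra_mKO array 2) to 0.52, with 0.25 without WT array 2. Receptor medians were 0.06 to 0.16. Members above log2 7 numbered 10, 13 above 6.5 and 7 above 7.5. Of the 32 members and 15 pathway genes followed, these changed sign. Tnfrsf21 was at -0.06 and Tnfrsf22 at 0.03 after quantile normalization. With the block Tnfrsf13b was at -0.02 and Tnfrsf21 at -0.05. Leaving out single arrays turned Tnfrsf13b (-0.06 to 0.09), Tnfrsf21 (-0.12 to 0.16), Tnfrsf19 (-0.03 to 0.00), Tnfsf11 (-0.00 to 0.01), Tnfsf4 (-0.02 to 0.05), Tnfrsf11b (-0.35 to 0.05), Tnfsf18 (-0.45 to 0.76) and Tnfaip3 (-0.14 to 0.22). Centring on the median also brought Relt (adjusted p = 0.0489) and Timp3 (0.0293) past the threshold.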
